A study of Mus musculus with 8 samples.

Results

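The genes described here encode the tissue inhibitors of metalloproteinases and a set of matrix metalloproteinases, followed in mouse primary myotubes exposed to 3 related cytokines. They were taken by symbol: 4 inhibitors (Timp1, Timp2, Timp3 and Timp4) and 6 proteases (Mmp2, Mmp3, Mmp9, Mmp11, Mmp14 and Mmp19), so 10 of the 53647 gene identifiers in the count files. Myotubes are the multinucleated fibres that form when muscle precursor cells fuse in culture. Here the precursors came from the limb muscles of wild-type mouse pups, 2 to 3 days of age, and were induced to differentiate in low-serum medium. Control cultures received no named agent, and the other groups received 1 cytokine each for 48 h at 250 ng/ml: interleukin 6 (IL6), oncostatin M (OSM) or leukaemia inhibitory factor (LIF). Harvest was 72 h after differentiation. Each of the 4 groups had 2 libraries. The labels do not say whether the libraries of a group came from separate animals or cultures. The p-values thus measure the spread between these libraries, which may be technical. In the fit, the spread of each gene is drawn towards that of other genes, so the p-values rest on this shared estimate too. The series title places the experiment in the context of OSM signalling and muscle wasting in cancer, and the design asks how the 3 cytokines compare at the same dose and time.

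Matrix metalloproteinases are zinc-dependent enzymes that cut collagens, laminins, proteoglycans and many proteins at the cell surface. Most are made as inactive precursors, and once active they are blocked by the tissue inhibitors, which bind the catalytic site in a tight complex. In muscle, these enzymes and their inhibitors take part in the turnover of the basement membrane around fibres and in the movement and fusion of precursor cells. OSM, LIF and IL6 all signal through the receptor subunit gp130, paired with different partner subunits.

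Total counts were 29482077 to 30025471 per library. Levels are given as CPM, counts relative to library size, after scaling by the trimmed mean of M values, and tests are from edgeR's quasi-likelihood model over all 8 libraries, with p-values adjusted by the Benjamini-Hochberg method over the 15603 genes tested. A gene is called when its adjusted p is under 0.05. The 9 myotube markers checked summed to 24040 to 25460 CPM in control and 21120 to 21410 CPM in OSM libraries. Of these, Myog (log2 change -0.53) and Mylpf (-0.31) were called lower with OSM, Des (0.30) was called higher, and the rest were not called. With LIF, Myog (-0.43) was called lower and Des (0.55) higher. All 6 neutrophil markers had at most 10 counts in every library, with S100a9 and Ngp at 0. The fibroblast marker Lum was at 0 as well, and 3 of the 8 fibroblast markers had at most 10 counts in every library. Of the 8 macrophage markers, 4 had at most 10 counts in every library, as had 4 of the 8 endothelial markers, where Emcn was at 0.

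After OSM, transcripts of the inhibitors Timp1 and Timp3 rose more than 3-fold, Mmp9 and Mmp19 rose about 2-fold, and Mmp2 and Mmp11 fell. Timp2 and Mmp14 did not pass the test. Of the 8 members with enough counts to be tested, 6 were called between OSM and control, 4 higher and 2 lower. Over all genes tested in that comparison, 21.4% were called, 10.8% higher and 10.6% lower. The median log2 change of the 8 members was 0.53, against 0.00 over all genes. LIF gave 4 called members, all higher (Timp1, Timp3, Mmp9 and Mmp19), where 7.66% of all genes were called, 4.2% higher and 3.46% lower. IL6 gave none called, in a comparison where 0% of all genes were called. At an unadjusted p under 0.05, IL6 and control differed for 3 members (Timp1, Timp3 and Mmp19), all higher, and for 5.1% of all genes. The 3 comparisons share the control libraries, so they are not independent of each other. In RNA from whole cultures, fewer cells of a type and less RNA per cell cannot be told apart.

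**Figure D1:**
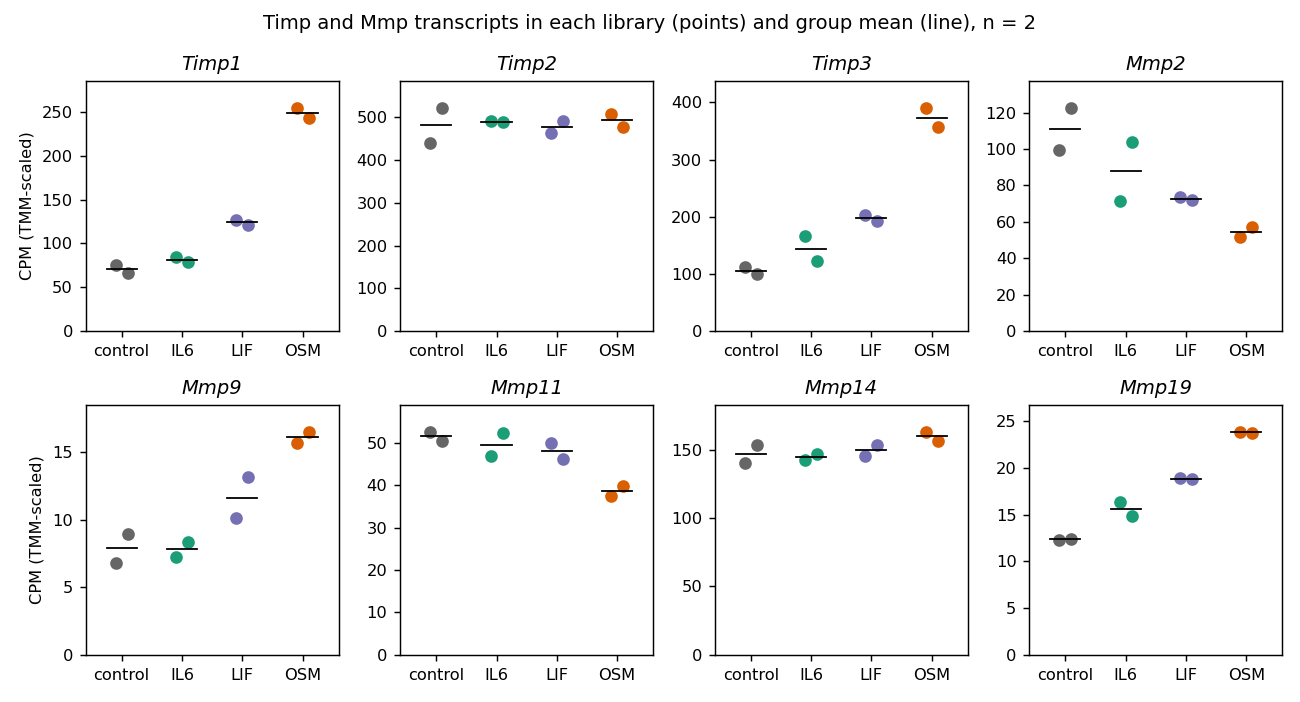
Level of each tested Timp and Mmp gene in CPM (vertical axes, from 0) in the control, IL6, LIF and OSM groups, with 1 point for each library and a line at the mean of 2 libraries. For Timp1 and Timp3 both OSM libraries lie above every other library, at 243 CPM or more for Timp1 and at 357 CPM or more for Timp3, while for Timp2 the treated libraries lie within the range of the control libraries.

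Timp1 encodes a secreted inhibitor of most matrix metalloproteinases, known for its induction by cytokines of the gp130 group in other cell types. Its level was 75.8 and 66.0 CPM in the control libraries, 84.3 and 78.8 CPM with IL6, 127 and 122 CPM with LIF, and 255 and 243 CPM with OSM. The 4 groups did not overlap and stood in the order control, IL6, LIF and OSM. The share of all genes with such an order was not counted, so how common it is cannot be said. OSM and control libraries alone did not overlap in 60.9% of all genes tested. OSM raised Timp1 3.51-fold over control, a log2 change of 1.81 (SE 0.07, adjusted p = 5.00e-09), and LIF raised it 1.75-fold (log2 change 0.81, SE 0.07, adjusted p = 2.54e-05). With IL6 the log2 difference was 0.20 (SE 0.07), with an unadjusted p of 0.0161 and an adjusted p of 0.943. Both control libraries lay below both IL6 libraries, but this step was not called.

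Timp3 encodes an inhibitor that binds to the extracellular matrix and also blocks several ADAM proteases, among them the one that sheds tumour necrosis factor. Timp3 stood at 113 and 99.6 CPM in control, 166 and 123 CPM with IL6, 203 and 192 CPM with LIF, and 391 and 357 CPM with OSM. As for Timp1, the groups did not overlap. OSM raised Timp3 by 1.82 on the log2 scale (SE 0.13, adjusted p = 4.56e-06). The rise was 0.90 for LIF (SE 0.12, adjusted p = 0.00225). For IL6 the difference was 0.45 (SE 0.12) and was not called, with an unadjusted p of 0.00511 and an adjusted p of 0.943. The IL6 libraries differed from each other, at 166 against 123 CPM. Without the second IL6 library the log2 change with IL6 was 0.65 and was called (adjusted p = 0.00108), and without the first it was 0.21. In the GENCODE M21 annotation, 21.3% of the exon bases of Timp3 overlap Syn3 on the opposite strand, and Syn3 had 1 to 10 counts in each library. Of the 50-base stretches of the longest Timp3 transcript, 36.3% also occur in transcripts of other genes. Both strands were searched, so stretches shared with Syn3 can be among them. How far this sharing affects the Timp3 count was not tested.

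Timp2, which encodes the inhibitor that also helps the membrane protease MMP14 to activate the MMP2 precursor, stayed in one range. It was measured at 440 and 523 CPM in control, 491 and 489 CPM with IL6, 463 and 492 CPM with LIF, and 509 and 478 CPM with OSM. The range of the 2 control libraries contained all 6 treated libraries. Against control, the log2 difference was 0.04 with OSM (SE 0.08, adjusted p = 0.797), and its adjusted p was 0.962 with LIF. The sign of these differences changed when single libraries were left out. Timp4, an inhibitor known mainly from heart and skeletal muscle, had 0 to 4 counts in each library and 11 in all. That is at the limit of detection at this depth, and no fold change is given.

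The promoters of the 3 expressed inhibitors are shown because Timp1 and Timp3 rose together whereas Timp2 did not pass the test in any comparison. RefSeq promoter windows (build GRCm38.p6, 250 bases before to 50 bases after the start) were matched for 7 of the 10 members, and Mmp2, Mmp9 and Mmp19 had no entry. The sequences below are the 250 bases before each start, 5′ to 3′ on the strand of the gene, with capitals for AGGAAG, the core of the PEA3/ETS motif. Timp1 lies at chrX:20869916-20870165 on the plus strand, Timp3 at chr10:86300162-86300411 on the plus strand and Timp2 at chr11:118355412-118355661 on the minus strand.
Timp1: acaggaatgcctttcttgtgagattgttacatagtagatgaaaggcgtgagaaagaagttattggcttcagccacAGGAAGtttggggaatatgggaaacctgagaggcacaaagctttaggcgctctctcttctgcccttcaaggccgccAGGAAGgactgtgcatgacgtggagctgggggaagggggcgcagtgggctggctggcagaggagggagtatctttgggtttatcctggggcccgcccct
Timp3: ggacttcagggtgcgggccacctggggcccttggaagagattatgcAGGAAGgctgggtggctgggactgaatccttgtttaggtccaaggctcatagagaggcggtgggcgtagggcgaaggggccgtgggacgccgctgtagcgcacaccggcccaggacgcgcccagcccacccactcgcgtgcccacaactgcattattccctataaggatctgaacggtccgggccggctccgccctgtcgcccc
Timp2: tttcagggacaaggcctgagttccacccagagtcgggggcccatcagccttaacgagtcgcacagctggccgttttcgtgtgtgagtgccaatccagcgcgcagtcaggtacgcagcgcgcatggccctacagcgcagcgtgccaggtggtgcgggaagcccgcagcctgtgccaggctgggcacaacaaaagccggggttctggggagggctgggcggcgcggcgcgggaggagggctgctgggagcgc

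In these windows, AGGAAG occurred at positions -175, -99 and +41 of Timp1, counted from the start, and at -204 of Timp3, and it was not found in Timp2. It was also matched in Timp4, Mmp3 and Mmp14, and not in Mmp11. The same letters are present on either strand in 35.4% of the 32851 promoter windows of that length, so they are common. A further stretch of Timp1, from +25 to +50 (chrX:20870190-20870215, plus strand), holds TGAGTAA, a variant of the AP-1 motif, followed by the third AGGAAG, both in capitals.
Timp1 +25 to +50: gaTGAGTAAtgcgtccAGGAAGcctg
TGAGTAA was found in 2.68% of all windows, and among the 7 matched members only in Timp1. The usual AP-1 letters, TGANTCA (7.81% of windows), were matched in Mmp3 alone, at -46 to -40, shown in capitals within -56 to -30 (chr9:7445766-7445792, plus strand).
Mmp3 -56 to -30: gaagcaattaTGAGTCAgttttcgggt
The STAT motif TTCNNNGAA, present in 8.3% of windows, had no match in the 7. The GC box GGGCGG (35.7% of windows) was matched in Timp1, Timp2, Timp3, Mmp11 and Mmp14, and TATAAA (13.6%) in Mmp3. Both strands were searched, and no matches of different motifs overlapped in these windows. A match is a description of the letters, not a measured binding site.

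The gelatinases MMP2 and MMP9 cut denatured collagen and basement membrane collagen, and their transcripts moved in opposite directions. Mmp2 was at 99.6 and 123 CPM in control, 71.7 and 104 CPM with IL6, 73.8 and 71.9 CPM with LIF, and 52.0 and 57.4 CPM with OSM. Both OSM libraries lay below every other library, and both LIF libraries lay below control. OSM lowered Mmp2 2.03-fold (log2 change -1.02, SE 0.16, adjusted p = 0.00242). With LIF the log2 difference was -0.61 (SE 0.16) and missed the threshold at an adjusted p of 0.0574. It was called when either IL6 library was left out (adjusted p = 0.000994 without the first and 0.000762 without the second). With IL6 it was -0.34 (SE 0.16, adjusted p = 0.943). Without the second IL6 library, that difference was -0.63 and was called (adjusted p = 0.0205).

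Mmp2 is a gene of connective-tissue cells as well as of muscle precursors, so the fibroblast markers are given beside it. Their summed level was 189 to 325 CPM in control, 107 to 178 CPM with IL6, 139 to 201 CPM with LIF and 92.2 to 109 CPM with OSM. Most of that sum was Col1a1, a collagen chain, at 309 and 169 CPM in control and 72.1 and 84.7 CPM with OSM, a difference that was not called (log2 difference -1.61, adjusted p = 0.0858). The other 7 fibroblast markers together ran from 15.9 to 19.3 CPM in control and from 20.1 to 24.2 CPM with OSM. Of the 8 markers, Pdgfra was called higher with OSM (log2 change 0.53, adjusted p = 0.0193) and none lower. The library of a pair with more Col1a1 was the one with less Mmp2 in control, and the one with more Mmp2 in the IL6, LIF and OSM groups. The 6 myoblast markers summed to 912 to 949 CPM in control and 1069 to 1112 CPM with OSM, where Pax7, Myf5 and Itga7 were called higher. Most of that sum was Itga7, at a mean of 655 CPM in control and 779 CPM with OSM. Myod1 (log2 difference 0.06) and Cdh15 (0.19) were not called with OSM, and Chrdl2 was not tested. The markers of pericytes and smooth muscle summed to 125 to 130 CPM in control and 113 to 114 CPM with OSM. Among them, Pdgfrb and Rgs5, which had only 5 to 31 counts per library, were called lower with OSM. Notch3 (log2 difference 0.02), Abcc9 (0.15) and Cspg4 (-0.75) were not called with OSM, and Myh11 was not tested. The part of these cells in the fall of Mmp2 was not tested.

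Mmp9 was a transcript of low level: 6.83 and 8.93 CPM in control, 7.28 and 8.36 CPM with IL6, 10.1 and 13.2 CPM with LIF, and 15.7 and 16.5 CPM with OSM. The IL6 libraries fell within the control range, and those of LIF and OSM lay above it. OSM raised it 2.04-fold (log2 change 1.03, SE 0.15, adjusted p = 0.000326), and LIF 1.48-fold (log2 change 0.56, SE 0.16, adjusted p = 0.0448). The call with LIF was narrow. It was lost without the first control library (log2 difference 0.38, adjusted p = 0.246), without the second LIF library (0.36, adjusted p = 0.453), and without the first or the second OSM library (adjusted p = 0.0852 and 0.0849).

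Mmp9 is also made by leukocytes. The 8 macrophage markers summed to 9.20 to 10.4 CPM in control, 11.4 to 16.0 CPM with IL6, 15.1 to 15.9 CPM with LIF and 15.3 to 16.7 CPM with OSM, so this sum was higher with OSM too. Cd68 (log2 change 1.03) and Mrc1 (0.68) were called higher with OSM, and Mrc1 was called higher with LIF too (0.81, adjusted p = 0.0120). Adgre1, Csf1r, Ptprc and Lyz2 had at most 10 counts in every library and were not tested, and Itgam and Cd163 were tested and not called. Summed neutrophil markers were 0 to 0.0686 CPM in control and 0.0336 to 0.103 CPM with OSM. The part of macrophages in the rise of Mmp9 was not tested.

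The stromelysins differ in how they are activated, since MMP11 is cut to its active form by furin inside the cell, whereas MMP3 is activated outside it. Mmp11 was at 52.6 and 50.3 CPM in control, 46.8 and 52.3 CPM with IL6, 49.8 and 46.2 CPM with LIF, and 37.5 and 39.7 CPM with OSM. The OSM libraries were below all others, and the remaining 6 lay between 46.2 and 52.6 CPM. OSM lowered it to 0.750 of control (log2 change -0.41, SE 0.08, adjusted p = 0.00184), and with LIF the log2 difference was -0.10 (SE 0.08, adjusted p = 0.532). In GENCODE M21, 5.58% of the exon bases of Mmp11 overlap Chchd10 on the opposite strand, and Chchd10 was also lower with OSM (log2 change -0.61, adjusted p = 0.0291). The part of that overlap was not tested. Mmp3 had 2 to 11 counts per library and 45 in all, too few to test.

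MMP14, the membrane-anchored protease that activates MMP2 at the cell surface, had a transcript level that hardly varied. Mmp14 was at 140 and 153 CPM in control, 143 and 147 CPM with IL6, 146 and 154 CPM with LIF, and 163 and 156 CPM with OSM. The OSM libraries lay above control, but the log2 difference of 0.12 (SE 0.06) was not called (adjusted p = 0.200). Of all genes tested, 60.9% had OSM and control libraries that did not overlap, as had 7 of the 8 members.

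Mmp19 encodes a secreted protease of basement membrane proteins. It was at 12.3 and 12.4 CPM in control, 16.3 and 14.8 CPM with IL6, 18.9 and 18.8 CPM with LIF, and 23.9 and 23.7 CPM with OSM. The groups did not overlap, in the same order as for Timp1 and Timp3. OSM raised Mmp19 1.92-fold (log2 change 0.94, SE 0.09, adjusted p = 7.22e-06) and LIF raised it 1.52-fold (log2 change 0.61, SE 0.09, adjusted p = 0.00158). For IL6 the difference was 0.33 (SE 0.09) and was not called, with an unadjusted p of 0.00389 and an adjusted p of 0.933. In GENCODE M21, 28.3% of its exon bases overlap Tmem198b and Gm47093 on the opposite strand, and 25.4% of its 50-base stretches are shared with them. Tmem198b had 515 to 823 counts, with a log2 change of 0.40 with OSM (adjusted p = 0.0277) and -0.02 with LIF (adjusted p = 0.955). Reads from the bases that Mmp19 and Tmem198b share cannot be told apart if counting ignored strand, a setting not given in the sources used here.

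**Figure D2:**
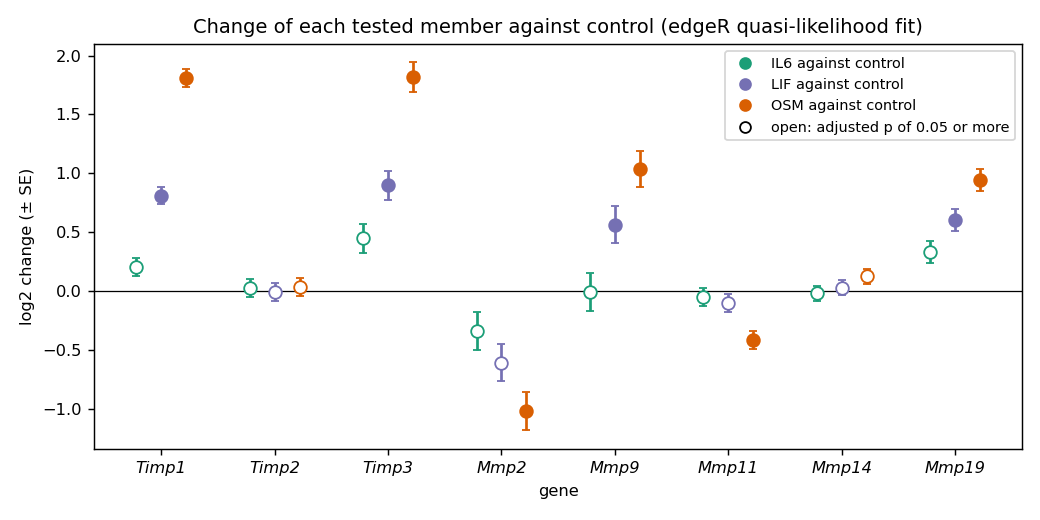
Log2 change of each tested member against control with IL6, LIF and OSM (vertical axis, genes along the horizontal axis), with bars of 1 standard error and filled points for an adjusted p under 0.05. Timp1 and Timp3 with OSM are the highest points, at 1.81 and 1.82, and Mmp2 with OSM is the lowest, at -1.02.

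The cytokines were then compared directly. OSM exceeded LIF for both inhibitors: the log2 difference was 1.002 for Timp1 (SE 0.07, adjusted p = 3.64e-06) and 0.92 for Timp3 (SE 0.12, adjusted p = 0.00121). Mmp19 was higher with OSM than with LIF by 0.34 (SE 0.09, adjusted p = 0.0328) and Mmp11 was lower by 0.32 on the log2 scale (log2 difference -0.32, SE 0.08, adjusted p = 0.0232). So 4 of the 8 tested members were called between OSM and LIF, 3 higher and 1 lower, where 8.04% of all genes were called, 4.01% higher and 4.04% lower. The calls of Mmp19 and Mmp11 were each lost without any one of the 4 OSM and LIF libraries, leaving 2 called. The adjusted p was then 0.150 to 0.240 for Mmp19 and 0.0676 to 0.295 for Mmp11. For Mmp9 the log2 difference was 0.47 (SE 0.15, adjusted p = 0.0742) and for Mmp2 -0.41 (SE 0.16, adjusted p = 0.193), neither called. Both passed the threshold in the fit with a replicate block (adjusted p = 0.00859 for Mmp9 and 0.0315 for Mmp2), with only the OSM and LIF libraries in the fit (0.00377 and 1.70e-05), and without either IL6 library, Mmp9 also without either control library.

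Between OSM and IL6, 6 of the 8 were called, 4 higher and 2 lower, where 15.5% of all genes were, 8.02% higher and 7.52% lower. Timp1 (log2 difference 1.61), Timp3 (1.37), Mmp9 (1.04) and Mmp19 (0.61) were higher with OSM. Mmp2 (-0.68, adjusted p = 0.0234) and Mmp11 (-0.36, adjusted p = 0.00623) were lower. The Mmp2 call was lost without the first or the second OSM library (adjusted p = 0.125 and 0.0599), and that of Mmp11 without the first (adjusted p = 0.104). Between LIF and IL6, Timp1 alone was called, higher with LIF by 0.61 (SE 0.07, adjusted p = 0.000584), where 2.78% of all genes were called, 1.76% higher. Timp3 was at 0.45 (SE 0.12, adjusted p = 0.0946) and Mmp9 at 0.57 (SE 0.16, adjusted p = 0.0722) in that comparison. With the replicate number as a block, Timp3 (adjusted p = 0.00116) and Mmp9 (adjusted p = 0.00891) were called too.

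To compare levels between genes, CPM was divided by the length of the annotated exons in kb. In control, Timp2 had the highest level per kb (124 CPM per kb), followed by Timp1 (79.8) and, among the proteases, Mmp2 (33.0), Mmp14 (24.6) and Mmp11 (18.5). Timp3 stood at 13.0, Mmp19 at 3.50 and Mmp9 at 2.23 CPM per kb. With OSM, Timp1 was at 280 CPM per kb, above Timp2 at 127, and Timp3 was at 45.9. Among the proteases with OSM, Mmp14 (26.8 CPM per kb) stood above Mmp2 (16.2). With the longest transcript as length in place of all exons, Timp3 was at 22.5 CPM per kb in control and 79.1 with OSM, and Mmp14 at 45.3 in control. The order of Mmp2 and Mmp14 in control also depends on the length used: with the longest transcript, Mmp14 made up 41.2% of the summed protease level and Mmp2 32.7%, against 30.1% and 40.2% with all exons.

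Summed over the inhibitors, the level was 216 ± 6.07 CPM per kb in control (SD, n = 2), 235 ± 8.47 with IL6, 287 ± 0.329 with LIF and 452 ± 18.03 with OSM. The sum over the proteases was 81.9 ± 6.23 CPM per kb in control, 74.8 ± 8.49 with IL6, 72.7 ± 0.196 with LIF and 68.3 ± 0.907 with OSM (SD, n = 2). The inhibitor sum thus had its highest level with OSM, in both libraries. Both protease sums with OSM lay below both of control, as did both with LIF. The protease sum of the first IL6 library, 68.8 CPM per kb, lay between those of the OSM libraries (67.7 and 69.0). No test was made of these sums, which rest on the members chosen. Timp1 made up 37.0% of the inhibitor sum in control, 39.0% with IL6, 48.8% with LIF and 61.9% with OSM, while the share of Timp2 was 57.0%, 53.5%, 42.8% and 27.98% in the same order. The share of Mmp2 in the protease sum was 40.2% in control and 23.7% with OSM, and that of Mmp14 was 30.1% and 39.3%. These are transcript levels, and neither the proteins nor their activity were measured.

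**Figure D3:**
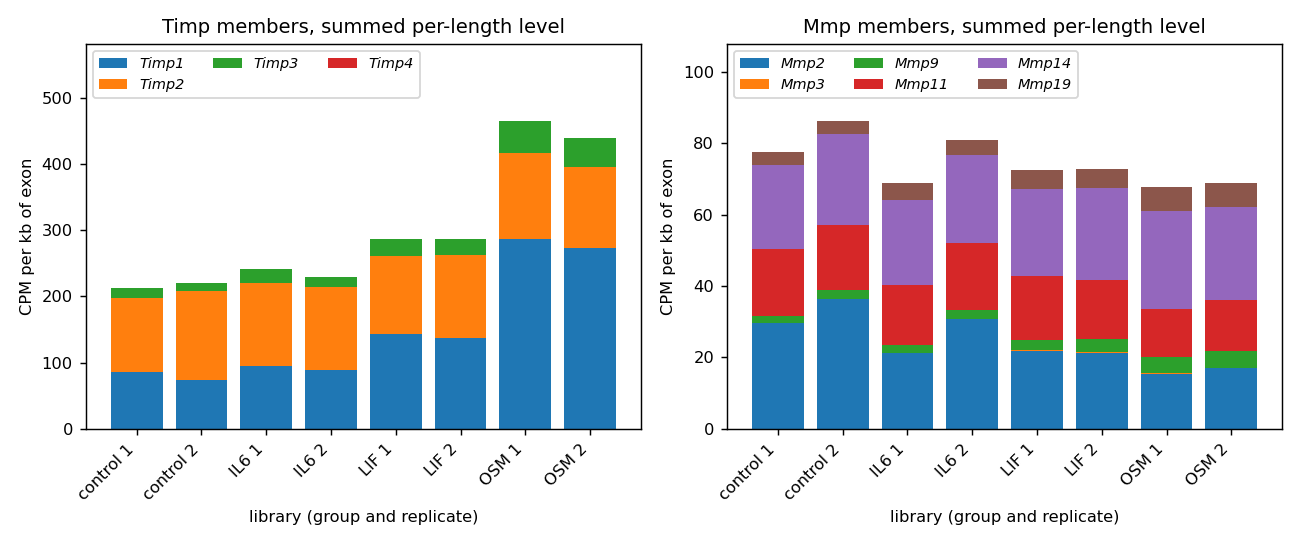
Summed level per kb of exon of the inhibitor genes and of the protease genes (vertical axes, CPM per kb, from 0) in each of the 8 libraries, 1 bar for each library, divided by member gene. The inhibitor sum averages 216 CPM per kb in control and 452 with OSM, where Timp1 takes the greatest share, and the protease sum averages 81.9 in control and 68.3 with OSM.

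Genes with the pattern most like that of Timp1 were ranked by the root mean square difference of log2 CPM, centred on control, over the 8 libraries, among 10869 genes. Timp3 came first (0.15), followed by C1qtnf1 (0.16), Il4ra, Calcrl and Sdc1 (each 0.17). Il4ra encodes a receptor subunit for interleukin 4, Calcrl a receptor of the calcitonin family and Sdc1 the cell-surface proteoglycan syndecan-1. Among the member proteases the nearest were Mmp19 at rank 101 (0.46) and Mmp9 at rank 109 (0.46), whereas Timp2 was at rank 4721. Ranks of proteases outside the members were not read. The genes most like Mmp9 were A4galt (0.12), Sphk1 (0.13), Samhd1 (0.13), Gja1 (0.14) and Ptk2b (0.14), with Mmp19 at rank 75 (0.24). Sphk1 encodes a sphingosine kinase, and Gja1 the gap junction protein connexin 43.

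The other metalloproteinases, the relatives that the inhibitors also touch, the activators and the matrix substrates were read from 4 lists. Among 17 other matrix metalloproteinases, 6 had enough counts to test, and 2 rose with both OSM and LIF, where 21.4% and 7.66% of all genes were called. Mmp16, a membrane-type protease, was at 3.24 ± 0.0225 CPM in control and 8.47 ± 0.499 CPM after OSM (SD, n = 2). Its log2 change was 1.39 (SE 0.16, adjusted p = 3.89e-05). Mmp13, a collagenase, rose by 1.67 with OSM (SE 0.38, adjusted p = 0.00629) and by 1.73 with LIF (SE 0.37, adjusted p = 0.0119), but had only 9 and 21 counts in the control libraries. Without the first control library its change was 1.20 with OSM (adjusted p = 0.0642) and 1.26 with LIF (adjusted p = 0.0973), neither called. Mmp16 rose by 0.63 with LIF (adjusted p = 0.0376), a call that was also lost without the second control library (adjusted p = 0.106) and without the first or the second OSM library (adjusted p = 0.0709 and 0.0699). Leaving out the first control library or either LIF library left no LIF call in this list.

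Of 21 tested ADAM and ADAMTS proteases, relatives that shed surface proteins or cut proteoglycans, 7 rose and 2 fell with OSM, and 5 rose and 1 fell with LIF, against 21.4% and 7.66% of all genes called in either direction. Adam8 was at 3.78 ± 0.0142 CPM in control and 11.0 ± 0.449 CPM with OSM (SD, n = 2; log2 change 1.54, SE 0.13, adjusted p = 2.54e-06). Adamts16 rose as well (log2 change 3.45, SE 0.52, adjusted p = 0.000337), from 2 and 3 counts in control to 32 and 25 with OSM. Adamts4, an aggrecanase, rose by 0.81 with LIF (SE 0.10, adjusted p = 0.000316) and by 0.60 with OSM (SE 0.10, adjusted p = 0.000676). Adamts10 fell with OSM (log2 change -0.63, adjusted p = 0.00355) and with LIF (-0.50, adjusted p = 0.0307). Without the first OSM library, the log2 difference of Adamts10 with OSM was -0.51 and its call was lost. The LIF call of Adamts10 was lost with DESeq2 (adjusted p = 0.0807). It was also lost without either control library or either LIF library, at log2 differences from -0.53 to -0.46. The median log2 change of the list was 0.13 with OSM and 0.10 with LIF. The LIF calls numbered 3 without the first control library, 1 without the first LIF library and 2 without the second.

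Among 17 tested activators and other regulators of these proteases, 9 rose and 2 fell with OSM (21.4% of all genes called), and 4 rose and 2 fell with LIF (7.66% of all genes). The list medians were 0.40 and 0.15. Plat, the tissue plasminogen activator, was at 43.8 ± 3.03 CPM in control and 101 ± 0.996 CPM with OSM (SD, n = 2; log2 change 1.21, SE 0.07, adjusted p = 1.16e-07). Furin, the convertase that activates MMP11 and MMP14, rose by 0.90 (SE 0.06, adjusted p = 2.84e-07). With LIF, Plat rose by 0.38 (SE 0.08, adjusted p = 0.00773) and Furin by 0.34 (SE 0.06, adjusted p = 0.00436). Plau, the urokinase activator, fell with both OSM (log2 change -0.55, SE 0.08, adjusted p = 0.000208) and LIF (-0.48, SE 0.08, adjusted p = 0.00233). A2m, a broad protease trap, rose by 4.37 with OSM (SE 0.54, adjusted p = 6.16e-05), from 1 and 3 counts in control to 34 and 54, so its fold is imprecise. Without the second LIF library, 3 LIF calls were left.

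Of 18 tested matrix substrates, 6 rose and 4 fell with OSM, where 21.4% of all genes were called, and 4 rose and 4 fell with LIF, where 7.66% were. The list medians were 0.04 and -0.06. The basement membrane collagen chains Col4a1 (log2 change -1.01, SE 0.09, adjusted p = 2.93e-06) and Col4a2 (-0.72, SE 0.07, adjusted p = 5.06e-06) fell with OSM. With LIF, Col4a1 (-0.47, adjusted p = 0.00511) and Col4a2 (-0.34, adjusted p = 0.00723) fell too. Col4a1 was at 520 ± 32.8 CPM in control and 259 ± 9.32 CPM with OSM (SD, n = 2). Vcan, the proteoglycan versican, rose by 1.002 (SE 0.07, adjusted p = 2.61e-07) and Tnc, the matrix glycoprotein tenascin C, by 1.02 (SE 0.13, adjusted p = 0.000486). With LIF, Vcan rose by 0.62 (adjusted p = 0.000129). Thbs1, thrombospondin 1, fell with both LIF (log2 change -0.60, adjusted p = 0.00311) and OSM (-0.54, adjusted p = 0.00190). The LIF calls numbered 5 without the first control library, 4 without the first LIF library and 2 without the second. With IL6, none of the genes in the 4 lists was called, but 5 matrix substrates were when the second IL6 library was left out.

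**Figure D4:**
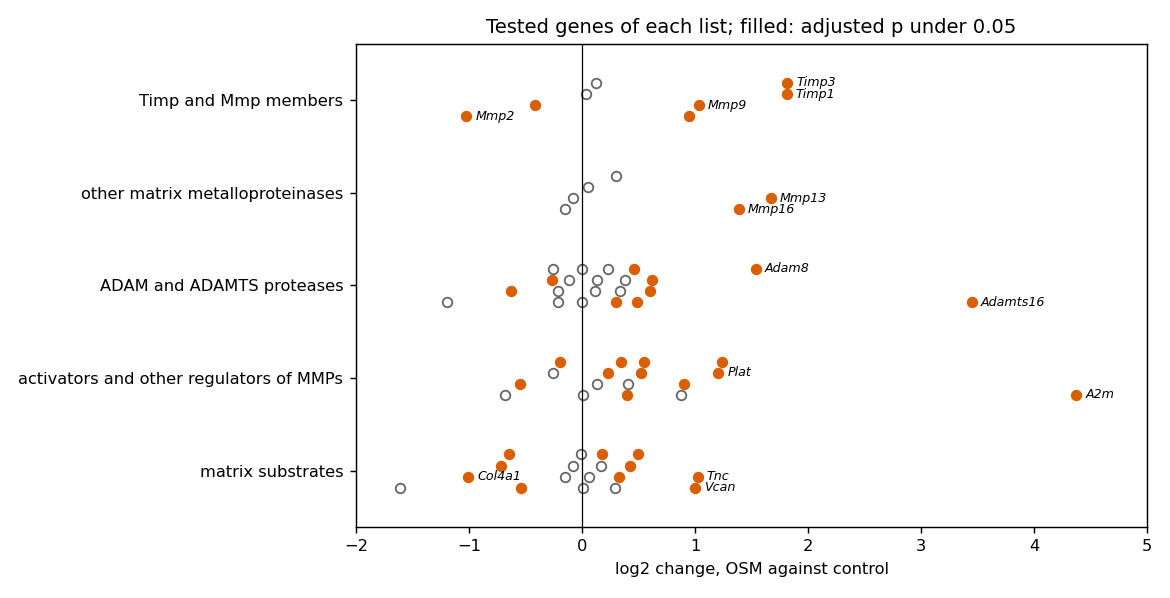
Log2 change with OSM against control (horizontal axis) of every tested gene among the Timp and Mmp members and in the 4 lists, 1 point for each gene, filled where the adjusted p is under 0.05. Timp1 and Timp3 lie at 1.81 and 1.82 and Mmp2 at -1.02, Plat lies at 1.21, and A2m and Adamts16, which had few counts, lie farthest to the right.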

How the data were processed

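RNA was measured in 8 libraries of mouse primary myotubes, made with a stranded mRNA kit per the labels. The deposited values are raw counts of reads per gene, 1 file for each library, with no pooling by the authors. The submitters' processing notes name Trim Galore 0.6.5, STAR 2.7.3a, HTSeq 0.11.1, DESeq2 1.34.0 and the build GRCm39. The annotation release and the strand setting of the counting are not given in the sources used here. Lines that name no gene held 11.7% to 12.7% of alignments and were left out. Of the 53647 identifiers, 52094 are in GENCODE M21 (build GRCm38), which gave symbols, lengths and overlaps, with 99.8% of counts. Genes spread over near-identical copies can lose reads in such counting.

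Counts were tested with edgeR 4.0.16 in R 4.3.3: filterByExpr with a minimum count of 10, TMM scaling, a robust quasi-likelihood fit of 4 group means over the 8 libraries, which leaves 4 residual degrees of freedom, and 6 contrasts, with Benjamini-Hochberg adjustment over 15603 genes. Alternatives were DESeq2 1.42.0, edgeR with DESeq2 size factors (RLE), upper-quartile scaling, no filter, the replicate block, only the groups compared, and leaving out each library. Depth of 29482077 to 30025471 counts limits precision mainly for genes of few counts. Counting limits cover counting error only, because the reads carry no molecular identifiers and so do not count single molecules. Replicates differed by more than counting error, with a chi-square per gene of 2.97 to 12.0.

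The members, the lists and the tests were chosen with earlier results of these data known. All members are named. Of each list, at most the 4 called genes with the largest log2 change per comparison against control are named, and 1 list gene is not reported here. Genes of like pattern are the 5 nearest to Timp1 and to Mmp9, which had the largest rise with OSM among the tested member proteases, with a mean of at least 100 counts. Markers and genes that overlap a member are named where a result touches them. Mean ± SD is over 2 libraries. Each SE of a log2 change is the absolute log2 change divided by the square root of the quasi-likelihood F statistic.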

Additional observations from a re-analysis of the deposited data

How the results depend on the processing

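The 21 called differences of members kept their direction in all 294 values under the alternatives, and 277 of them stayed called. The 6 calls between OSM and control held in every alternative. Of 378 values of the 27 differences not called, 30 became called and 18 changed sign. The same alternatives were added, after seeing the data, for the other named genes, where 56 of 755 values of called changes lost the call and none changed sign. Of their changes not called, that of Tnc with LIF ran from -0.306 to 0.156 over single libraries left out, positive without the first control library. Cause was not tested for any of these.

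Leaving out each library in turn, all genes called numbered 1622 to 4067 between OSM and control (6 to 6 members), 316 to 1688 between LIF and control (3 to 5), 0 to 221 between IL6 and control (0 to 2), 437 to 1764 between OSM and LIF (2 to 6), 1105 to 2713 between OSM and IL6 (4 to 6) and 82 to 739 between LIF and IL6 (1 to 3). The lowest counts for OSM against control and for LIF against control came without the first OSM library and without the second LIF library, and the 221 came without the second IL6 library.

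Between IL6 and control, edgeR called 0 genes, with 795 genes at an unadjusted p under 0.05. There, 97 genes and 1 member were called with no filter, 17 and 1 with DESeq2, and 9 and 1 with the replicate block, the member being Timp3 each time. With only the 2 groups compared, 2928 genes were called between OSM and LIF. Between LIF and IL6, no filter gave 985 genes and 3 members, DESeq2 2 members, and the replicate block 826 genes and 3 members. With only the 2 groups in the fit, Mmp9 with LIF lost its call (adjusted p = 0.0711), as did Mmp19 between OSM and LIF with DESeq2 (adjusted p = 0.0709). Mmp2 with LIF was called with no filter (adjusted p = 0.0428), with 2 groups (adjusted p = 0.00440) and with the block (adjusted p = 0.00416).

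The correlations of replicate differences between groups were 0.00708 to 0.181, all positive. They cannot settle whether libraries with the same replicate number share an animal or culture, which the labels do not say. The block moved no other count of calls by over 1.5 times.

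Changes of sign were in differences not called. Without each library in turn, the log2 difference of Timp2 ran from -0.0834 to 0.173 for OSM, -0.130 to 0.122 for LIF and -0.0929 to 0.156 for IL6 against control. Against IL6, that of Timp2 ran from -0.0294 to 0.0610 for OSM, with -0.0171 under upper-quartile scaling, and from -0.0818 to 0.00676 for LIF. Mmp14 ran from -0.0363 to 0.100 for LIF and -0.0834 to 0.0505 for IL6, Mmp9 from -0.193 to 0.197 and Mmp11 from -0.139 to 0.0230 for IL6, all against control. Mmp2 ran from -0.505 to 0.0232 and Mmp11 from -0.120 to 0.0393 for LIF against IL6.

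With the longest transcript as length, the inhibitor sum was 233 CPM per kb in control and 494 with OSM, and the protease sum 110 and 96.2, the same order as with all exons. With 2 libraries a group, each SD is a rough measure. At this depth Timp4 and Mmp3 could not be tested.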
